A study of Mus musculus with 6 samples.

Results

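The zinc finger homeobox genes *Zfhx2*, *Zfhx3* and *Zfhx4* were examined in neural stem cells (NSCs) carrying floxed *Tbl1xr1*. They are 3 of 53379 genes of the expression table, taken by these symbols, and all 3 were among the 14840 genes with enough reads to be tested. The family was chosen by the size of the rise of *Zfhx4* between the groups compared here, so the differences of its members between those groups are given as a description, with no p-value.

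Each ZFHX protein is a very large transcription factor that carries many C2H2 zinc fingers and several homeodomains, the DNA-binding folds that also define the Hox and Dlx proteins. ZFHX3, first described as a factor binding the alpha-fetoprotein enhancer, acts in neuronal differentiation and in the circadian clock of the hypothalamus. ZFHX4 is known from the developing brain and from glioma stem cells, where it works with CHD4, the motor of the NuRD chromatin complex. ZFHX2 is expressed in brain and in sensory neurons, where it takes part in the sensing of pain.

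The cells were cortical NSCs of mouse embryos at E14.5 with 2 floxed alleles of *Tbl1xr1*, a subunit of the NCOR/SMRT corepressor complexes. A lentivirus brought in GFP alone for the controls (replicates 1, 1_1 and 2, the GFP libraries) or Cre with GFP (replicates 2, 2_2 and 3, the libraries labelled Cre), after which GFP+ cells were sorted. RNA-seq gave 7510615 to 11161497 reads assigned to genes in the GFP libraries and 11893230 to 14828100 in those labelled Cre. Both groups carry the floxed alleles and a virus, and differ by Cre. Whether replicates numbered alike came from 1 embryo or culture is not stated, so the error terms measure only the spread between these libraries, and culture and deletion cannot be told apart.

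The targeted gene did not fall at the level of its whole mRNA. *Tbl1xr1* had 2522, 2190 and 2721 normalized counts in the GFP libraries and 3774, 3463 and 2905 in those labelled Cre, so that the groups did not overlap and the libraries labelled Cre were higher. The log2 difference was 0.45 (SE 0.14, adjusted p = 0.060, limma), and it passed in 2 of 16 alternatives, with DESeq2 (0.040) and without Cre replicate 3 (0.023). The loxP sites flank a single exon, which a count over the whole gene does not isolate. The study reported correct genotypes by PCR in the sorted cells, and that *Tbl1xr1* mRNA (RT-qPCR) and protein (Western blot) were absent after Cre. Those assays are not analysed here. Whether any label was exchanged was not tested, and exchanged labels would turn the sign of the differences given here. A normalized count is the number of reads of a gene divided by a single size factor per library, and log2 differences are taken on log2(normalized count + 1), Cre minus GFP.

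A search of each translated coding sequence for 1 form of the core of the third helix of a homeodomain found 3 matches in each member, and homeodomains with another form of this core would not be counted. The homeodomain around the middle match was the most alike: 58 of its 60 residues were identical between ZFHX3 and ZFHX4, 52 of 60 between ZFHX2 and ZFHX4, and 52 of 60 between ZFHX2 and ZFHX3. Its coding DNA is shown because it was the most alike of the 3 matched homeodomains. Capitals mark the 18 bases that encode the matched core of the third helix, which contacts DNA. The sequences, read 5′ to 3′ on the coding strand, are from GENCODE M1 transcripts on the mm9 assembly.
Zfhx2, chr14:55683633-55683812, minus strand, exon 9 of 10: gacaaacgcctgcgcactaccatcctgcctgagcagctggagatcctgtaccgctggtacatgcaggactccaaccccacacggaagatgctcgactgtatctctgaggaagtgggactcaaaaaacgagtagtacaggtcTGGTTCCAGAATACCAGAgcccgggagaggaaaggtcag
Zfhx3, chr8:111474167-111474346, plus strand, exon 9 of 10: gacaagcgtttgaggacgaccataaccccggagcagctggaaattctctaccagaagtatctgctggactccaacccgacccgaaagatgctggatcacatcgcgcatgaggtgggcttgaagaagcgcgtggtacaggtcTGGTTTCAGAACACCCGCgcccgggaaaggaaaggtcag
Zfhx4, chr3:5402500-5402679, plus strand, exon 10 of 11: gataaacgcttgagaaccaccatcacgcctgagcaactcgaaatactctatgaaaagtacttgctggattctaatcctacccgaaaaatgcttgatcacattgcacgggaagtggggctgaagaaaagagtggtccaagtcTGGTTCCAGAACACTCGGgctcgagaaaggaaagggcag

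Over the 180 bases shown, *Zfhx3* and *Zfhx4* shared 140 bases (77.8%), *Zfhx2* and *Zfhx3* 134 (74.4%), and *Zfhx2* and *Zfhx4* 128 (71.1%). The homeodomains around the first and last matches were less alike, with 55 and 52 of 60 residues identical between ZFHX3 and ZFHX4, 37 and 47 between ZFHX2 and ZFHX4, and 38 and 45 between ZFHX2 and ZFHX3. Across the whole transcripts on the same strand, the longest stretch without a mismatch was 35 bases between *Zfhx3* and *Zfhx4*, 25 between *Zfhx2* and *Zfhx3*, and 20 between *Zfhx2* and *Zfhx4*. The coding lengths were 7689 bases for *Zfhx2*, 11172 for *Zfhx3* and 10746 for *Zfhx4*, for proteins of 2562, 3723 and 3581 residues. The read length is not given in the sources used here, and whether reads were shared between the genes was not tested.

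*Zfhx4* was close to silent in the GFP libraries and clearly present in the libraries labelled Cre. *Zfhx4* (ENSMUSG00000025255, mm9 chr3:5218554-5415855, plus strand, 13874 exonic bases) had 3.67, 8.78 and 2.67 normalized counts in GFP replicates 1, 1_1 and 2, and 217, 196 and 257 in Cre replicates 2, 2_2 and 3. These values rest on 4, 6 and 2 reads in the GFP libraries and on 313, 228 and 287 reads in the libraries labelled Cre. The lowest library labelled Cre lay far above the highest GFP library, and the groups did not overlap. The group means were 5.04 ± 3.28 and 223 ± 30.9 (SD, n = 3 each), a linear ratio of 44.3. Single pairs of libraries gave ratios from 22.4 to 96.3, all in the same direction over 9 of 9 pairs. On the log2 scale the difference was 5.34 (SE 0.37). Because so few reads lay behind the GFP values, the pooled count ratio of 46.8 had an exact 95% interval from 26.6 to 90.9, which covers counting error only. In bulk RNA, more cells with *Zfhx4* and more *Zfhx4* RNA per cell cannot be told apart.

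*Zfhx3* was present in all 6 libraries and overlapped between the groups. *Zfhx3* (ENSMUSG00000038872, mm9 chr8:111238544-111485521, plus strand, 16424 exonic bases) had 268, 338 and 283 normalized counts in GFP replicates 1, 1_1 and 2, and 242, 478 and 393 in Cre replicates 2, 2_2 and 3. Cre replicate 2 was the lowest of the 6 libraries and Cre replicate 2_2 the highest, although these share the number 2. The means were 296 ± 36.9 and 371 ± 119 (SD, n = 3 each), and the log2 difference was 0.28 (SE 0.22). A library labelled Cre exceeded a GFP library in 6 of 9 pairs. The spread was wider in the libraries labelled Cre, with a coefficient of variation of 32.1% against 12.4%.

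*Zfhx2* was also present in all 6 libraries, with a small overlap between the groups. *Zfhx2* (ENSMUSG00000040721, mm9 chr14:55680498-55710885, minus strand, 8722 exonic bases) had 301, 334 and 412 normalized counts in GFP replicates 1, 1_1 and 2, and 444, 392 and 557 in Cre replicates 2, 2_2 and 3. Cre replicate 3 was the highest library, and the overlap came from GFP replicate 2 lying above Cre replicate 2_2. The means were 349 ± 57.1 and 464 ± 84.5 (SD, n = 3 each), and the log2 difference was 0.41 (SE 0.17). A library labelled Cre exceeded a GFP library in 8 of 9 pairs. Coefficients of variation were alike, at 16.4% in GFP and 18.2% in the libraries labelled Cre.

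**Figure D1:**
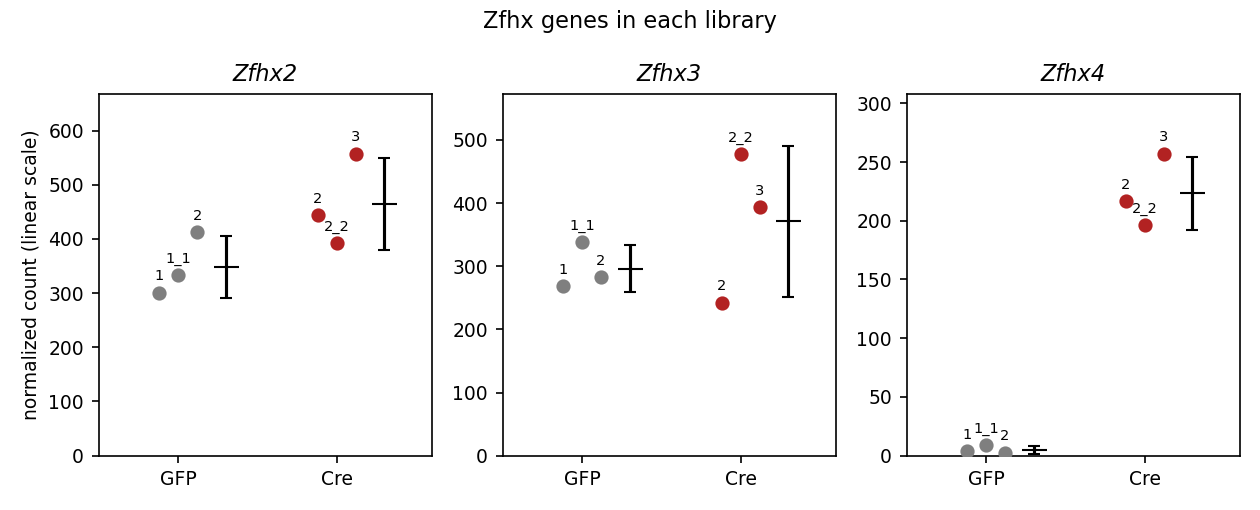
Normalized counts (linear axis from 0, a different range in each panel) of *Zfhx2*, *Zfhx3* and *Zfhx4* in the 3 GFP libraries (grey) and the 3 libraries labelled Cre (red), with replicate names beside the points and the mean and SD of each group as a bar. *Zfhx4* runs from 2.67 to 8.78 in GFP and from 196 to 257 in the libraries labelled Cre, while the other members overlap between the groups.

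All 3 members had a higher mean in the libraries labelled Cre, but the sizes differed widely. In the fit over all tested genes, 1478 of 14840 genes (9.96%) passed an adjusted p-value of 0.05 (limma, Benjamini-Hochberg), of which 704 were higher (4.74% of all tested) and 774 were lower (5.22%) under Cre. *Zfhx4*, 1 of the 3 members, had groups that did not overlap, the libraries labelled Cre being higher, as had 14.7% of all tested genes, a count that follows from the choice of the family and carries no weight of its own.

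Among the 11135 genes with a mean of at least 50 normalized counts, *Zfhx4* ranked number 2 by the log2 difference towards the libraries labelled Cre. A high rank follows from the choice of the family and carries no weight of its own. The order leaves out tested genes with a lower mean. *Zfhx4* reached that mean only through the libraries labelled Cre (group means 5.04 in GFP and 223 in those labelled Cre). *Ptprk*, a receptor tyrosine phosphatase, stood above it at 6.12 (SE 0.38), with 0.918, 2.93 and 1.33 normalized counts in the GFP libraries and 181, 205 and 157 in those labelled Cre. Below it came *Pcdh17*, a protocadherin of cell adhesion, at 4.56, then *Pla2g7*, the platelet-activating factor acetylhydrolase, at 3.87 and *Ramp1*, a partner of the calcitonin receptor-like receptor, at 3.47. The standard error was 0.37 for *Zfhx4* and 0.29 for *Pcdh17*, so each difference in the order carries the error of both genes. No test of the order was made. *Zfhx2* ranked number 1361 and *Zfhx3* number 2247 in the same order. With limits chosen after the values were seen, 2 genes, *Ptprk* and *Zfhx4*, lay under 10 normalized counts in every GFP library and over 100 in every library labelled Cre, and 7 genes did the opposite.

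**Figure D2:**
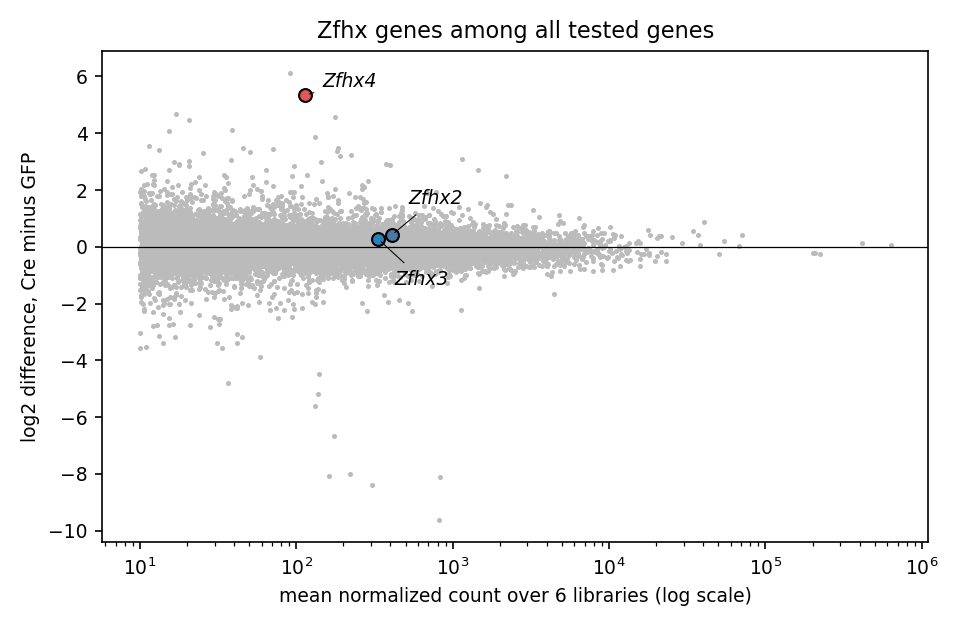
Each point is 1 of the 14840 tested genes, with its mean normalized count over 6 libraries (log axis) and its log2 difference, Cre minus GFP. *Zfhx4* lies near the top at 5.34, while *Zfhx2* at 0.41 and *Zfhx3* at 0.28 lie inside the cloud of other genes.

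Levels of different genes were compared per length, as reads per kilobase of exon relative to the total of assigned reads (RPKM). In the GFP libraries *Zfhx2* was the highest member with 3.80 ± 0.66 RPKM, followed by *Zfhx3* with 1.71 ± 0.146 and *Zfhx4* with 0.0340 ± 0.0207 (SD, n = 3). This order held in each of the 3 GFP libraries. In the libraries labelled Cre, *Zfhx2* had 5.07 ± 0.868 RPKM, *Zfhx3* 2.15 ± 0.67 and *Zfhx4* 1.54 ± 0.197. There *Zfhx3* and *Zfhx4* overlapped, since in Cre replicate 2 *Zfhx4* at 1.52 RPKM stood above *Zfhx3* at 1.44, whereas *Zfhx2* stayed above both in each library.

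*Zfhx4* thus moved from the bottom of the detected genes into the lower middle. Among genes with at least 1 read in a library and a known length, its RPKM lay between percentiles 0.421 and 4.24 in the GFP libraries and between 33.7 and 39.0 in those labelled Cre. *Zfhx3* lay between percentiles 37.1 and 40.0 in GFP and between 38.2 and 45.4 in the libraries labelled Cre. *Zfhx2* ran from 49.7 to 55.2 and from 53.7 to 61.5. None of the 3 was an abundant mRNA in these cells.

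The make-up of the family changed with *Zfhx4*. It held 0.641%, 1.29% and 0.382% of the family's reads in GFP replicates 1, 1_1 and 2, with exact 95% intervals reaching up to 2.79%. In Cre replicates 2, 2_2 and 3 it held 24.0%, 18.4% and 21.3%, with intervals from 16.3% to 26.4%. Per length, its share of the summed RPKM was 0.297% to 1.06% in GFP and 16.0% to 19.2% in the libraries labelled Cre. The summed RPKM of the 3 members was 4.99, 5.41 and 6.25 in GFP and 7.91, 8.39 and 9.98 in the libraries labelled Cre, and the groups did not overlap. Without *Zfhx4*, the sum of *Zfhx2* and *Zfhx3* was 4.96, 5.35 and 6.23 against 6.39, 7.04 and 8.24, groups that lay close together without overlapping. This separation held only per length. In normalized counts the same sum overlapped, GFP replicate 2 lying above Cre replicate 2, and each of these genes overlapped singly. Of all tested genes, 14.7% had groups that did not overlap in normalized counts, the libraries labelled Cre being higher.

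**Figure D3:**
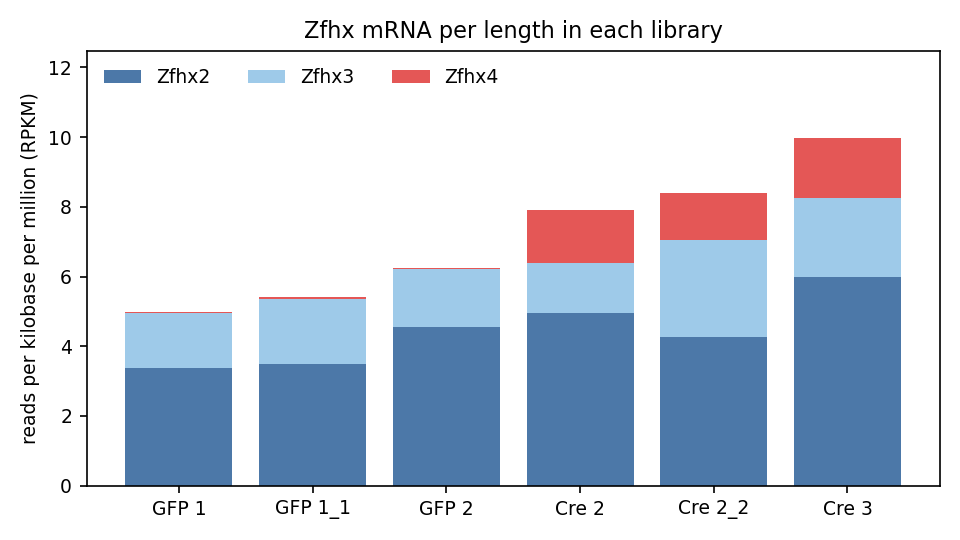
Stacked bars from 0 give the RPKM of *Zfhx2*, *Zfhx3* and *Zfhx4* in each of the 6 libraries. The *Zfhx4* segment is barely visible in the GFP libraries and makes up 16.0% to 19.2% of the bar in the libraries labelled Cre.

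Other transcripts lie across or beside the members. *Zfhx2os*, the antisense gene of *Zfhx2*, had 99.3 ± 19.2 normalized counts in GFP and 106 ± 40.9 in the libraries labelled Cre (SD, n = 3). Its groups overlapped, and its log2 difference was 0.04 (SE 0.27, adjusted p = 0.952, limma). Its reads amounted to 21.0% to 36.4% of those of *Zfhx2* in GFP and to 18.5% to 27.2% in the libraries labelled Cre. The library kit named in the labels does not mark strand, so wherever *Zfhx2* and *Zfhx2os* overlap their reads cannot be told apart. The GENCODE M1 genes used here showed none across *Zfhx2*, so the extent of any overlap is not known. Inside *Zfhx3*, the miRNA gene *Mir3108* had 0 reads in the 6 libraries, and across the start of *Zfhx4* the opposite-strand lincRNA *2700069I18Rik* had 2 reads in Cre replicate 2 and 0 elsewhere. Neither shares exonic bases with the member it crosses.

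The genes beside *Zfhx4* on the chromosome did not pass the main test. Up to 5 protein-coding genes on each side of each member gave 27 entries, of which 24 were in the table and 17 were tested. Of these, 3 passed as higher and 1 as lower, beside 4.74% and 5.22% of all tested genes. Beside *Zfhx4*, which lies in a gene-poor stretch of chromosome 3, 3 genes were tested and 0 passed by limma and by edgeR, with 1 of 3, *Zc2hc1a*, at an unadjusted p-value under 0.05 and passing by DESeq2. The nearest tested neighbour was *Pex2*, a peroxisome assembly factor 144 kb away, with 53.0 ± 19.0 and 62.1 ± 25.2 normalized counts and a log2 difference of 0.21 (SE 0.34, adjusted p = 0.755, limma). *Pkia*, an inhibitor of protein kinase A, differed by 0.22 and *Zc2hc1a*, more than 2 Mb away, by 0.65 (adjusted p = 0.417 and 0.076, limma).

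Of 7 tested neighbours of *Zfhx2*, 3 passed as higher, and 2 of these lie within 7 kb of it. Of all tested genes, 4.74% passed as higher. *Thtpa*, the thiamine triphosphatase, 2.79 kb from *Zfhx2*, had 67.9, 84.8 and 53.3 normalized counts in GFP and 120, 120 and 158 in the libraries labelled Cre (log2 difference 0.95, SE 0.23, adjusted p = 0.025, limma). *Ap1g2*, an adaptor subunit of vesicle transport, 6.53 kb away, had 96.4, 93.6 and 70.7 against 167, 139 and 137 (0.76, SE 0.20, adjusted p = 0.035, limma). The spans of *Thtpa* and *Ap1g2* overlap at their ends on opposite strands. Since the kit does not mark strand, reads in the shared stretch cannot be told apart. *Cmtm5*, a membrane protein of the chemokine-like family, 122 kb away, rose from 49.5 ± 6.11 to 134 ± 14.6 (1.42, SE 0.21, adjusted p = 0.002, limma). Of these 3, *Cmtm5* passed in all 16 alternatives, while *Thtpa* was lost in 5 of 16, with adjusted p-values up to 0.108, and *Ap1g2* in 7 of 16, up to 0.134. *Thtpa*, *Ap1g2* and *Cmtm5* all had groups that did not overlap. So had *Jph4*, 14.8 kb away, which was higher but did not pass (0.67, adjusted p = 0.099, limma). *Myh7* and *Dhrs2*, which did not pass either, were lower without overlap. Of all tested genes, 14.7% had groups that did not overlap, the libraries labelled Cre being higher. Beside *Zfhx3*, 1 of 7 tested neighbours passed: *Nob1*, a factor of small ribosomal subunit maturation more than 1 Mb away, fell from 363 ± 35.6 to 244 ± 25.3 normalized counts (-0.57, SE 0.15, adjusted p = 0.036, limma, lost in 6 of 16 alternatives).

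The other genes of the zinc finger homeobox class moved little beside *Zfhx4*. The class list held 11 further genes, of which 10 were tested and 0 passed by limma, by edgeR and by DESeq2, with 3 of 10 at an unadjusted p-value under 0.05 by limma. Of all tested genes, 9.96% passed by limma. The median log2 difference of the 10 class genes was 0.12, beside -0.001 over all tested genes. *Tshz2*, a teashirt zinc finger factor of axial patterning, had 233, 206 and 236 normalized counts in GFP and 330, 282 and 312 in the libraries labelled Cre (0.45, SE 0.15, adjusted p = 0.074, limma). Its groups did not overlap, as in 14.7% of all tested genes with the libraries labelled Cre higher. *Adnp*, a neuroprotective chromatin factor, had 1839, 2234 and 2030 against 2253, 2694 and 3105 (0.39, SE 0.14, adjusted p = 0.103, limma), and passed in 1 of 16 alternatives, without Cre replicate 2, at 0.015.

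The remaining members of the class lay between -0.30 and 0.35 on the log2 scale. *Tshz1* stood at -0.30 and *Adnp2* at -0.23, both with groups that did not overlap. The share of all tested genes that were lower without overlap is not given here. The transcriptional repressors *Zhx1*, *Zhx2* and *Zhx3* stood at 0.35, 0.16 and 0.21. *Zeb1* at 0.08 and *Zeb2* at 0.04, repressors known from epithelial-mesenchymal transition and neural development, were the members closest to 0 together with *Homez* at -0.002. Adjusted p-values of these 8 genes were 0.171 or more (limma). *Zeb1* was abundant at 4422 ± 167 and 4688 ± 364 normalized counts (SD, n = 3). *Tshz3* was below the filter, with 0.793 ± 0.739 and 0.231 ± 0.40.

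**Figure D4:**
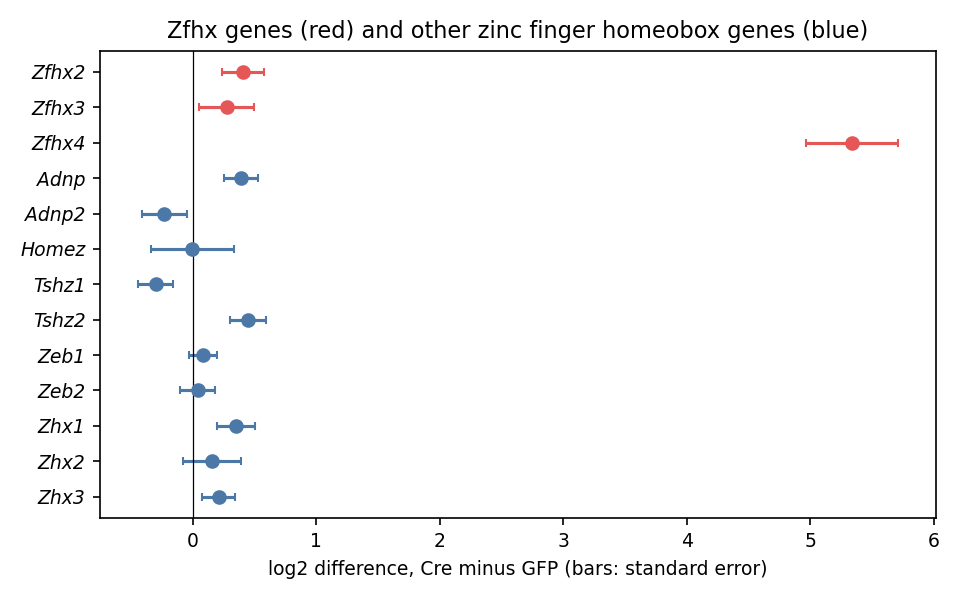
Log2 differences, Cre minus GFP, with standard errors as bars, for the 3 Zfhx genes (red) and the 10 other tested zinc finger homeobox genes (blue). *Zfhx4* at 5.34 stands apart from the others, which lie between -0.30 and 0.45.

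Partners and genes known from the work on ZFHX proteins were also described. Of 15 NuRD genes tested, 1 passed (6.67%, beside 9.96% of all tested genes), and 4 had an unadjusted p-value under 0.05 (limma). The passing gene *Chd3*, an ATPase of the complex, had 152, 171 and 164 normalized counts in GFP and 240, 244 and 287 in the libraries labelled Cre (0.66, SE 0.16, adjusted p = 0.023, limma, lost in 6 of 16 alternatives). The others of these 4, *Hdac1*, *Mbd3* and *Rbbp7*, were lower, at -0.53, -0.35 and -0.45. *Chd4*, the partner of ZFHX4 in glioma stem cells, was abundant and had overlapping groups, at 11502 ± 703 and 10647 ± 2351 (-0.13, SE 0.16, adjusted p = 0.661, limma). The median of the NuRD list was -0.09, with 5 positive and 10 negative differences. Of 5 genes linked to ZFHX3, *Afp*, *Anpep*, *Neurod1* and *Pdgfrb* were at or near 0 in all libraries and were not tested. *Cdkn1a*, the cell cycle inhibitor p21, had 3675, 3323 and 4126 normalized counts in GFP and 2612, 2825 and 2683 in the libraries labelled Cre (-0.45, SE 0.12, adjusted p = 0.037, limma), a call lost in 8 of 16 alternatives with adjusted p-values up to 0.153.

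Over the 6 libraries, the genes whose log2 values ran most like *Zfhx4* were *Pcdh10*, *Zfyve1*, *Sh3d19*, *3830406C13Rik* and *Pcdh17*, with Pearson r from 0.996 to 0.999. All 5 were higher in the libraries labelled Cre, by log2 differences from 0.68 for *Zfyve1*, a FYVE-domain protein of phosphoinositide membranes, to 4.56 for *Pcdh17*. *Pcdh10*, a protocadherin expressed in the developing brain, had 653, 806 and 652 normalized counts in GFP and 1809.6, 1701 and 1852 in the libraries labelled Cre. As in *Zfhx4*, GFP replicate 1_1 was the highest GFP library and Cre replicate 2_2 the lowest library labelled Cre. The 6 points form 2 groups, and 592 of 11134 genes (5.32%) reached r of 0.9 with *Zfhx4*, so a high r mostly restates the difference between groups.

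The patterns of *Zfhx2* and *Zfhx3* had other nearest genes. *Def8*, *Cbr1*, *Mmp14* and *Clybl* were among the genes most like *Zfhx2*, with r from 0.974 to 0.979, and *Zfp444*, *Borcs7*, *Gm16229*, *Med25* and *Mrps33* ran most like *Zfhx3*, with r from 0.971 to 0.990. The genes near *Zfhx3* shared its low value in Cre replicate 2 and its high value in Cre replicate 2_2, as in *Borcs7* with 110 and 189 normalized counts in these libraries. Only 86 genes (0.772%) reached r of 0.9 with *Zfhx2* and 124 (1.11%) with *Zfhx3*. All values rest on the size factors of the table, a separate one for each library, and depth was higher in the libraries labelled Cre.

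Markers of region and cell type were read beside the change of *Zfhx4*. Of all tested genes, 9.96% passed by limma, the share to set beside the counts per list. Of 8 genes of the dorsal telencephalon, 3 were tested (*Emx2*, *Lhx2* and *Pax6*) and 0 passed by limma, edgeR and DESeq2, with 0 at an unadjusted p-value under 0.05. *Emx1*, a defining cortical marker, was at 0.306 ± 0.53 and 0 normalized counts in cells labelled as cortical. *Neurog1*, at 0 in all libraries, and *Tbr1*, with means of 0.445 and 0.529, were also at or near 0. The 3 tested genes were present in both groups. Their means in GFP and in the libraries labelled Cre were 408 and 319 for *Emx2*, 159 and 141 for *Lhx2*, and 319 and 375 for *Pax6*. *Neurog2* and *Eomes*, of neurogenic cortical progenitors, were below the filter but non-overlapping, at 0 against 14.8 ± 8.6 and 0.488 ± 0.845 against 10.6 ± 1.78, and both passed without the filter (adjusted p = 0.003 and 0.009, limma). Of 14 ventral genes 4 were tested and 1 passed, *Dlx1*, which fell from 255 to 7.32 (-5.60, adjusted p = 0.001, limma). Of 15 genes from outside the telencephalon 5 were tested and 3 passed: *En2* of the midbrain and hindbrain fell from 322 to 0.231 (adjusted p = 7.4e-07, limma), and *Irx3* and *Irx5* rose by 2.33 and 1.40 (adjusted p = 6.3e-05 and 0.009, limma). These regional genes separated the same 2 groups of libraries as *Zfhx4*, and their part in its level was not tested.

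Of the cell type lists, those of astrocytes and of the oligodendrocyte lineage had more than 1 gene past the test. Of all tested genes, 9.96% passed by limma. Of 10 neural stem cell markers 1 passed, *Nes*, lower by 0.85, a share near that of all tested genes. The summed level of the list was 39756 to 43798 normalized counts in GFP and 40663 to 42587 in the libraries labelled Cre. Of 8 astrocyte markers 6 were tested and 4 rose, with *S100b* at 3.10, *Aqp4* at 1.64, *Slc1a2* at 1.16 and *Sox9* at 1.01, and the sums were 6436 to 7607 against 12397 to 15713. *Aqp4* was lost in 4 of 15 alternatives, with adjusted p-values up to 0.107. *Aldh1l1*, also an astrocyte marker, stood the other way at -1.65, with 17.3 ± 2.34 and 5.35 ± 3.30 normalized counts in groups that did not overlap (SE 0.51, adjusted p = 0.065, limma), and without Cre replicate 2 the list had 1 gene called lower. Of 8 genes of the oligodendrocyte lineage 6 were tested and 3 rose (*Olig2*, *Pdgfra* and *Cspg4*), with sums of 12488 to 14404 against 17236 to 19639. The 3 became 1 without GFP replicate 2, *Pdgfra* being lost in 2 of 16 alternatives with adjusted p-values up to 0.070 and *Cspg4* in 5 of 16 up to 0.121. Of 12 neuronal markers 7 were tested and 0 passed by limma, edgeR and DESeq2, with 1 at an unadjusted p-value under 0.05. The sums of the neuronal list were 9412 to 9641 against 10226 to 11501. They came almost wholly from *Map2*, at 9210 ± 95.2 and 10541 ± 626 (SD, n = 3). Of the 7 tested genes, 3 had a positive and 4 a negative log2 difference. *Elavl3*, at 81.2 ± 25.6 and 50.7 ± 2.81, and *Snap25* were lower under Cre without overlap. Neither passed (adjusted p = 0.151 and 0.631, limma). *Dcx*, below the filter, was also lower without overlap, at 9.5 ± 2.36 and 3.15 ± 1.27. The share of all tested genes lower without overlap is not given here. *Stmn2* and *Slc17a6* were at 0 in all libraries. Of 6 microglial genes 1 was tested and 0 passed by limma, edgeR and DESeq2, with 0 at an unadjusted p-value under 0.05 and sums of 164 to 206 against 167 to 274 that came almost wholly from *Csf1r*, and *Tmem119* was at 0. Of 5 endothelial and mural genes 1 was tested, *Kdr*, and 0 passed by the same tools, with 1 at an unadjusted p-value under 0.05 and sums of 22.7 to 40.4 against 12.1 to 14.5, *Cdh5* and *Cldn5* being at 0. None of 6 mesenchymal genes was tested, with sums of 1.84 to 5.85 against 0.693 to 21.5, *Col1a2* and *Twist1* being at 0. Their part in the level of *Zfhx4* was not tested.

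The differences of the members held their direction in all 16 alternatives tried. Among these, the settings without the filter and with a mean of at least 50 change only which genes are fitted. They could not move the log2 difference of a member. For *Zfhx4* the log2 difference ran from 4.55 to 5.75, the lowest with a pseudocount of 5 in place of 1 and the highest without GFP replicate 1_1. For *Zfhx2* it ran from 0.27 without Cre replicate 3 to 0.53 without GFP replicate 2. For *Zfhx3* it ran from 0.07 without Cre replicate 2_2 to 0.55 without Cre replicate 2, so each of these 2 libraries decides how large its difference appears.

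**Figure D5:**
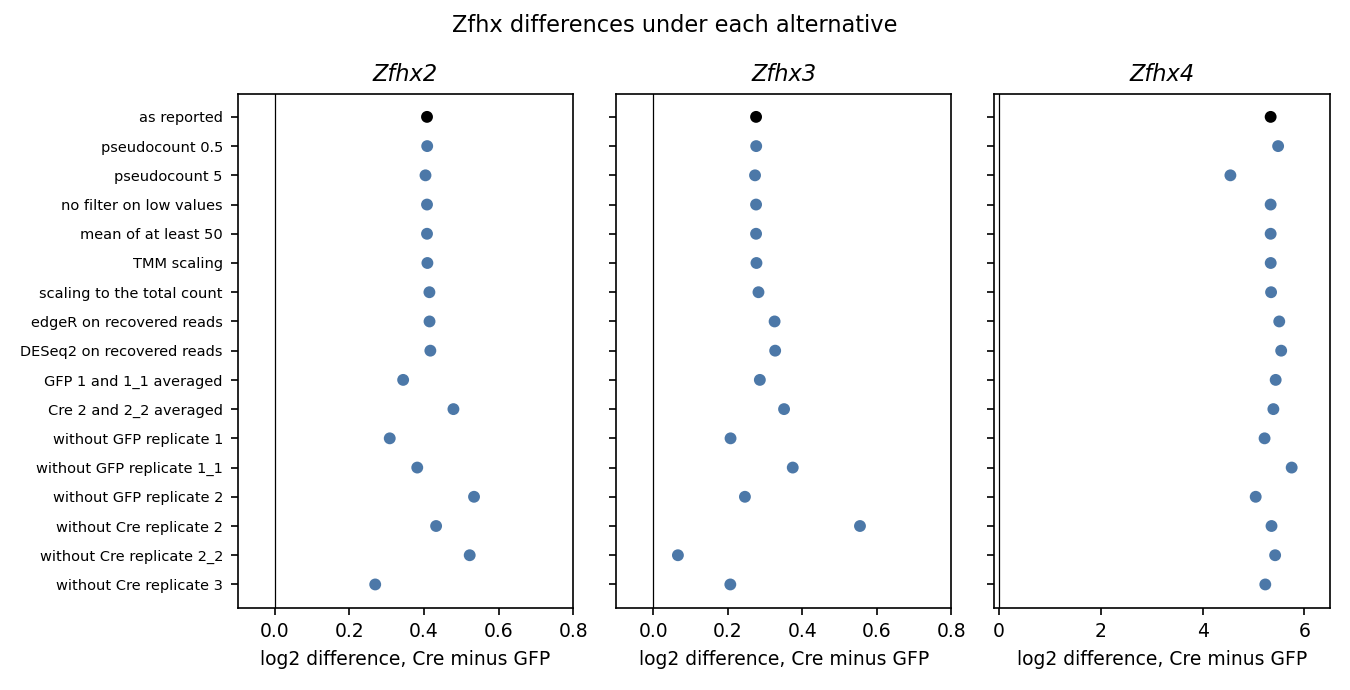
Log2 differences, Cre minus GFP, of *Zfhx2*, *Zfhx3* and *Zfhx4* as reported (black) and under 16 alternatives (blue), 1 per line, with a wider axis for *Zfhx4*. Every point lies above 0, with *Zfhx4* between 4.55 and 5.75 and *Zfhx3* between 0.07 and 0.55.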

How the data were processed

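RNA-seq values of 6 libraries were used. The authors aligned the reads and ran DESeq2; the methods name TopHat with mm9 and mm10, and the submitters' processing notes name STAR 2.7 and mm10. The counter, annotation version and strand setting are not given in the sources used here. The values the authors deposited are normalized counts, a signal equal to the reads of a gene over a size factor of its library. The authors' mean, log2 fold change, its standard error, a test statistic (score) and p-values per gene are deposited beside them and were not used. Of 53379 genes, 873 have no name and 1, missing a value, was left out. Whole reads were recovered for 100% of values (tolerance 0.001 reads).

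Genes with a mean of at least 10 normalized counts were tested on log2(value + 1) with limma 3.58.1 (R 4.3.3, lmFit and eBayes with trend, Benjamini-Hochberg, threshold 0.05), tested on simulated data. Alternatives were edgeR 4.0.16 and DESeq2 1.42.0 on recovered reads, pseudocounts of 0.5 and 5, no filter, a mean of at least 50, TMM and total count scaling, averaging GFP 1 with 1_1 or Cre 2 with 2_2, and leaving out each library. Shares of reads have Clopper-Pearson intervals, for counting error alone. RPKM used GENCODE M1 exon lengths on mm9 (32671 genes, 61.2%; 87.0% of tested genes), matched by gene identifier, and sequences came from its transcripts.

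Named were the members, the tested genes of the zinc finger homeobox and ZFHX3 lists, passing genes of other lists and neighbours, the 5 genes most like each member by Pearson r, the genes next to *Zfhx4* in order (up to 3 each way), *Zfhx2os* and *Tbl1xr1*. Other markers were named after their values were seen. The members and lists were chosen with earlier results of these data known. Some genes are not reported here, and the dorsal list and the genes most like *Zfhx2* are given without them.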

Additional observations from a re-analysis of the deposited data

How the results depend on the processing

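Over 16 alternatives the 3 members kept their direction, though the changes of filter could not move them, and *Zfhx4* fell to 4.55 with a pseudocount of 5. The count of 1478 genes passing became 660 with GFP 1 and 1_1 averaged and 558 (without GFP replicate 1) to 2396 (without Cre replicate 2) with 1 library left out, against 1483 by edgeR and 1755 by DESeq2. NuRD genes passing numbered 2 with a mean of at least 50, with DESeq2 and with Cre 2 and 2_2 averaged, 0 with GFP 1 and 1_1 averaged, and 0 to 2 with a library left out. *Cdkn1a*, the gene passing in the ZFHX3 list, gave 0 without the filter, with total count scaling and with GFP 1 and 1_1 averaged, and 0 to 1 with a library left out. Dorsal genes passing were 2 without the filter and 0 to 1 with a library left out, ventral genes 2 and 1 to 2, and zinc finger homeobox genes 0 to 1. Neighbours passing fell from 4 to 1 with GFP 1 and 1_1 averaged and ran from 1 to 6 with a library left out. *Homez* changed sign with total count scaling (0.0037) and ran from -0.25 to 0.22 with a library left out. Leaving out libraries also turned *Zeb2* (-0.074 to 0.15), *Zhx2* (-0.010 to 0.33) and *Zfhx2os* (-0.25 to 0.27). The cause was not tested. No scaling moved the median of all genes by over 0.1. The groups share only replicate number 2, so a fit with that number as a block would compare 1 GFP library with 2 labelled Cre, and it was not run. The 12 reads of *Zfhx4* in the GFP libraries limit the precision of its ratio.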
